A study of Mus musculus with 2 samples.

Results

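The microRNA genes Mir103-1, Mir103-2 and Mir107 form 1 family whose members lie in introns of the pantothenate kinase genes Pank3, Pank2 and Pank1. They were taken by gene symbol, matched through Ensembl gene IDs, and are 3 of the 1973 microRNA genes in the count tables. Their levels were not used to choose them. The tables describe RNA below 30 bases from skeletal muscle of newborn mice (strain B6NCrl, postnatal day 0), with 2 libraries that the labels number as biological replicates 1 and 2. Each library is taken here to come from muscle of 1 pup. The labels give the same donor record for both, so that the pups differ is assumed. There is 1 group, no treatment and no recorded sex, so the values are levels in newborn muscle and the spread between its libraries.

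A microRNA gene is transcribed as a hairpin, from which the strands of the stem are cut as the 5p and 3p arms. The loaded arm guides Argonaute to messenger RNAs that pair with its seed, bases 2 to 8, and lowers their output. Pantothenate kinases catalyse the first, rate-controlling step of coenzyme A synthesis. The miR-103 and miR-107 3p arms are known from mouse liver and fat as microRNAs that dampen insulin sensitivity, with caveolin-1, a membrane protein that stabilises the insulin receptor, among their targets. Messenger RNA and insulin response were not measured here.

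The hairpins are shown first, because their near identity bears on which reads a gene's count can hold. They are the RefSeq sequences on GRCm38.p6, 5′ to 3′, with the mature arms in capitals (5p first, then 3p).
Mir103-1: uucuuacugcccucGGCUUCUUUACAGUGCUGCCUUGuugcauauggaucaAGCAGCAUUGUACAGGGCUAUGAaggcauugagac
Mir103-2: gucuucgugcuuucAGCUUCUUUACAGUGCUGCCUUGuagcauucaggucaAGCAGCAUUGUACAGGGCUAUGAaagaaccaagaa
Mir107: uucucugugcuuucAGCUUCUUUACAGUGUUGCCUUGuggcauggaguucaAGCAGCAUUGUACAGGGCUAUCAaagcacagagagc

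Mir103-1 (ENSMUSG00000065553.1) lies at chr11:35782396-35782481 on the plus strand, in intron 5 of 6 of Pank3. Mir103-2 (ENSMUSG00000065563.1) lies at chr2:131288052-131288137 on the plus strand, in intron 5 of 6 of Pank2. Mir107 (ENSMUSG00000065594.1) lies at chr19:34820687-34820773 on the minus strand, in intron 5 of 6 of Pank1. The same intron number and the strand of the host were thus shared by all 3, and no annotated host transcript has an exon over any of them. Each hairpin starts within 1 kb of the exon upstream, at 688, 454 and 326 bases in the order given. The distance to the next exon differed more, at 966 bases in Pank3, 5261 in Pank2 and 6869 in Pank1. None has a microRNA neighbour close by: the nearest is Mir218-2, 165 kb from Mir103-1, Mir6973b, 248 kb from Mir103-2, and Gm27476, 70.1 kb from Mir107.

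The mature arms follow with their seeds in capitals, to show where the family differs.
miR-103-3p: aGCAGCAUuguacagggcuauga
miR-107-3p: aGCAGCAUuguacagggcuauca
miR-103-1-5p: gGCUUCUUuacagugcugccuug
miR-103-2-5p: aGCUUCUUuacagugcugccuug
miR-107-5p: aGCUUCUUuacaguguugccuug

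Both Mir103 genes give the identical 3p arm, and miR-107-3p differs from it by the single substitution G22C (counted from 1 at the 5′ end, miR-103 base first). The 5p arms of Mir103-1 and Mir103-2 differ by G1A, and those of Mir103-2 and Mir107 by C16U. All 3p arms carry the seed GCAGCAU and all 5p arms the seed GCUUCUU. In the RefSeq table of 1058 mouse microRNA genes, each of these seeds belongs to these 3 genes and to no other gene of the table. Identical arms are uncommon there, since 54 of 1674 distinct mature sequences (3.23%) come from more than 1 gene.

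Over the first 86 bases, Mir103-2 and Mir107 were identical at 73 (84.9%), and Mir103-1 matched either of them at 69 (80.2%). The longest stretch shared by Mir103-1 and Mir103-2 is 27 bases and spans the whole 3p arm. A further 23 bases shared by this pair cover the 5p arm from its second base on. Mir103-2 and Mir107 share 23 bases over the start of the 5p arm, from base 7 to base 29 of the hairpin. On the 3p side, Mir107 shares 24 bases with each Mir103 gene, which end where miR-107-3p departs from miR-103-3p. A 3p read that starts at base 1 therefore fits all 3 hairpins at 21 bases, and at 22 or 23 bases it fits Mir107 alone or both Mir103 genes. Such a read separates Mir103-1 from Mir103-2 from 25 bases on. The 5p arms read from base 1 fit 1 hairpin each. Without that base, the 5p arms of both Mir103 genes are the same 22 bases, while that of Mir107 still fits Mir107 alone. These matches are exact ones among annotated hairpins.

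**Figure D1:**
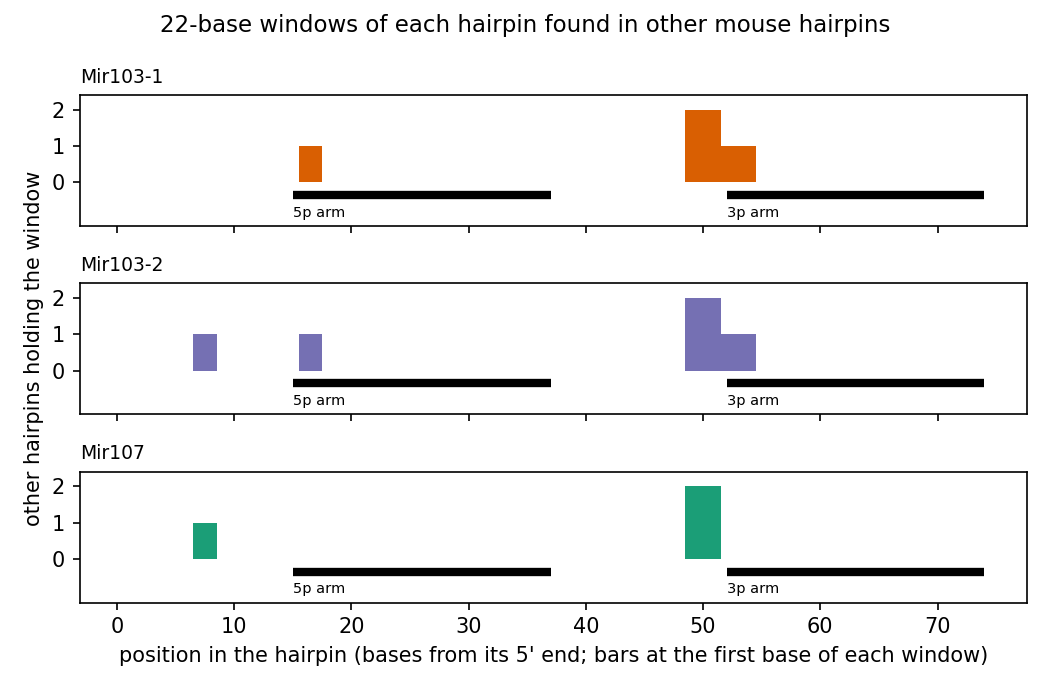
For each hairpin, bars stand at the first base of every 22-base window that also occurs in other annotated mouse hairpins, and their height is the number of those hairpins. Black lines mark the mature arms. Most shared windows lie at the start of the 3p arm, and the others take in the start of the 5p arm or most of it. Along the whole hairpin, 8 windows of Mir103-1, 10 of Mir103-2 and 5 of Mir107 recur elsewhere.

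Reads that fit more than 1 place stand in a row of their own in the tables and are counted for no gene. They made up 28.01% of the 16398945 reads of replicate 1 and 26.9% of the 21037937 reads of replicate 2. How many of them came from these hairpins was not analysed here, nor is the allowance for mismatches given in the sources used here. The counts below are of reads assigned to a gene alone, and for Mir103-1 and Mir103-2 they do not measure miR-103-3p as annotated, which fits both genes. Annotated-strand counts on microRNA genes came to 7955914 in replicate 1 and 10816295 in replicate 2. Levels are counts scaled to these totals (CPM), with 3 counts equal to 0.377 and 0.277 CPM. The hairpins are nearly equal in length (86, 86 and 87 bases), so levels are compared without a length term.

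Mir107, from the Pank1 intron, held nearly all counts of the family. It had 2185 counts in replicate 1 and 2134 in replicate 2, or 275 CPM (95% exact Poisson interval 263 to 286) and 197 CPM (189 to 206). Replicate 1 was the higher library, and the counting intervals did not overlap. The mean was 236 CPM ± 54.7 (SD, n = 2), which placed Mir107 at rank 144 of the 365 genes that reached 10 counts in each library, called detected from here on. The median detected gene had 87.0 CPM.

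Mir103-2, from the Pank2 intron, had 180 counts in replicate 1 and 90 in replicate 2. These were 22.6 CPM (19.4 to 26.2) and 8.32 CPM (6.69 to 10.2), again higher in replicate 1 with intervals that did not overlap. Its mean was 15.5 CPM ± 10.1 (SD, n = 2), rank 247 of 365.

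Mir103-1, from the Pank3 intron, was near the limit of detection with 17 counts in replicate 1 and 12 in replicate 2. Its levels were 2.14 CPM (1.24 to 3.42) and 1.11 CPM (0.573 to 1.94), with intervals that overlapped. The mean was 1.62 CPM ± 0.726 (SD, n = 2), rank 347. All 3 members passed the minimum of 10 counts, as did 18.5% of the genes in the tables. On the opposite strand each had 0 counts in both libraries, which allows up to 0.377 CPM in replicate 1 and 0.277 CPM in replicate 2.

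**Figure D2:**
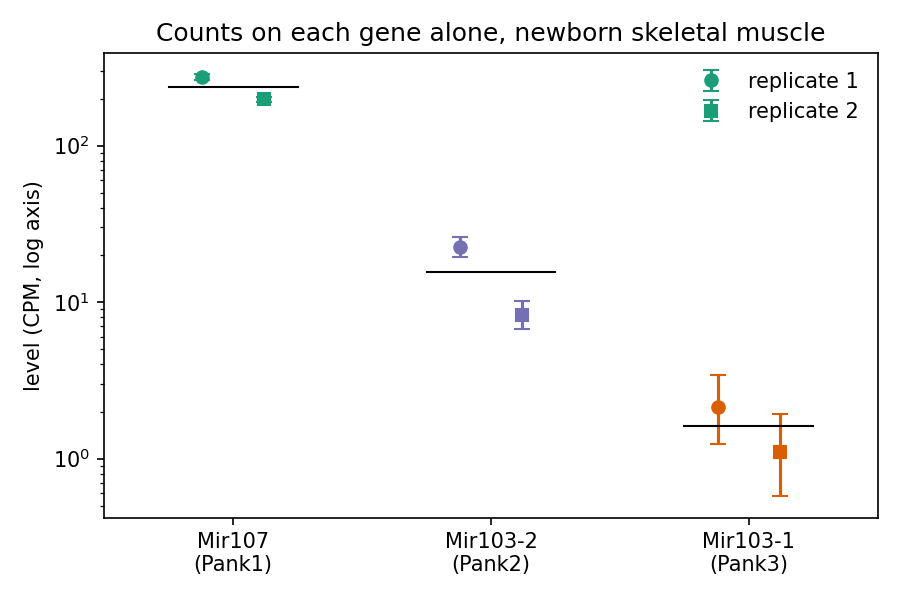
Level of each gene (CPM, log axis) in replicate 1 (circles) and replicate 2 (squares), with 95% exact Poisson intervals that cover counting error only, and the mean of both as a black line. The order Mir107, Mir103-2, Mir103-1 holds in each library, with no overlap between the genes' ranges.

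In each library the order was Mir107, then Mir103-2, then Mir103-1, and the lowest value of each gene lay above the highest value of the next. Mir107 exceeded Mir103-2 by 12.1-fold in replicate 1 (95% exact interval 10.4 to 14.2) and by 23.7-fold in replicate 2 (19.2 to 29.6). Mir103-2 exceeded Mir103-1 by 10.6-fold (6.43 to 18.6) and 7.50-fold (4.09 to 15.1). The copies of miR-103 were thus unequal in what was counted, but the reads that fit both are missing from each side of that ratio. In the ratio of Mir107 to Mir103-2, the full 3p arm can be counted for Mir107, which alone holds it, and not for Mir103-2, which shares it with Mir103-1. That ratio therefore compares assigned counts and not miR-107-3p with miR-103-3p.

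Together the members took 0.02994% of microRNA counts in replicate 1 (95% exact binomial interval 0.0287 to 0.0312) and 0.0207% in replicate 2 (0.0198 to 0.0215), a mean of 0.0253% ± 0.00655 (SD, n = 2). Mir107 made up 91.7% of the family's 2382 counts in replicate 1 (90.6 to 92.8) and 95.4% of its 2236 counts in replicate 2 (94.5 to 96.3). Mir103-2 made up 7.56% (6.53 to 8.69) and 4.03% (3.25 to 4.92), and Mir103-1 0.714% (0.416 to 1.14) and 0.537% (0.278 to 0.936). The split between Mir107 and Mir103-2 differed between the libraries, with 1.95 times higher odds of Mir107 in replicate 2 and p = 3.07e-07 by a two-sided Fisher's exact test (Benjamini-Hochberg adjusted p = 9.20e-07 over 3 pairs). For Mir107 against Mir103-1 the exact test gave p = 0.458 and for Mir103-2 against Mir103-1 p = 0.413, both with an adjusted p of 0.458. The tests with Mir103-1 rest on its 17 and 12 counts. These tests compare the 2 libraries, and counting error is their only error term.

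Each gene was also compared between the libraries over all 365 detected genes, by an exact two-sided binomial test after trimmed-mean (TMM) scaling, and called at a Benjamini-Hochberg adjusted p under 0.05 with at least 2-fold. This scaling moved every log2 ratio of replicate 1 over replicate 2 by -0.25 against library totals. Of all detected genes, 7.4% were called, 6.3% as higher in replicate 1. Of the members, only Mir103-2 was called. Its log2 ratio was 1.20 (95% counting interval 0.82 to 1.58), or 2.29-fold higher in replicate 1 (exact binomial test, adjusted p = 9.58e-11). The interval reaches below 2-fold, and 16 detected genes had a larger ratio in either direction. Among the 51 other detected genes within 2-fold of its mean level, 8 were called (15.7%), 7 of them higher in replicate 1.

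Mir107 had a log2 ratio of 0.23 (0.15 to 0.32), which passed the adjusted p (3.24e-07, exact binomial test) but not 2-fold. The adjusted p alone was passed by 223 of all 365 detected genes (61.1%), and 223 genes also had a larger absolute log2 ratio than Mir107, in either direction. The median absolute log2 ratio of all detected genes was 0.31. Mir103-1 had 0.70 (-0.45 to 1.90), with an adjusted p of 0.275 by the exact binomial test. Its interval holds both no difference and the ratio of Mir103-2.

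**Figure D3:**
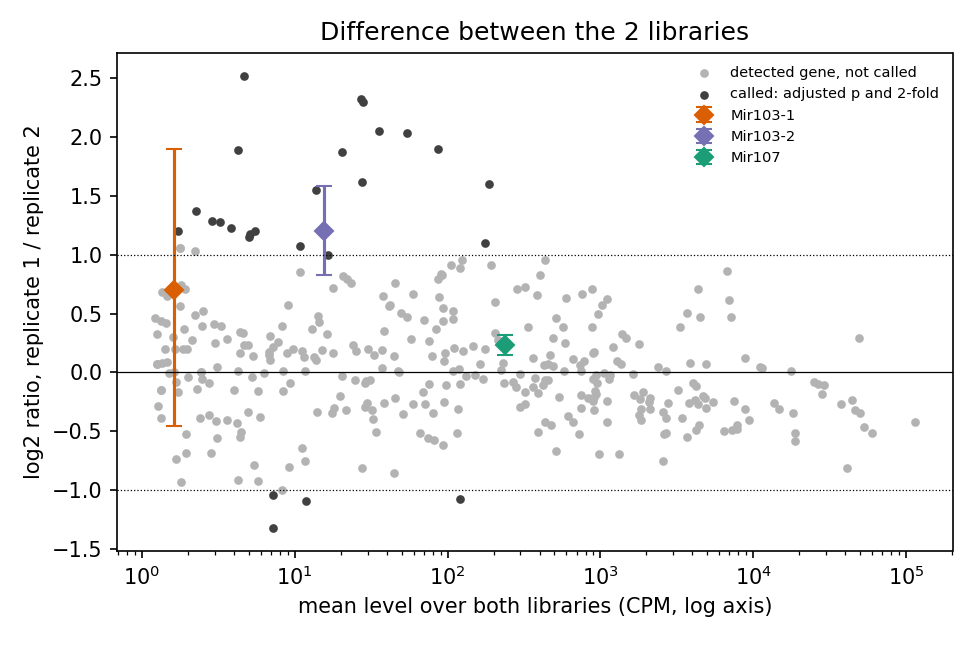
Log2 ratio of replicate 1 over replicate 2 after TMM scaling against mean level (CPM, log axis) for the 365 detected genes, called genes in dark grey, and the 3 members as diamonds with 95% counting intervals. Dotted lines mark 2-fold. Mir103-2 lies above the upper line at 1.20, Mir107 near the middle at 0.23, and the wide interval of Mir103-1 crosses 0.

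Some other values are set beside that of Mir103-2. Of the 44 detected genes with a mature arm identical to that of another gene, the Mir103 genes included, 8 were called (18.2%), all 8 higher in replicate 1. Of the 291 whose arms are all their own, Mir107 included, 15 were called (5.15%), 12 of them higher in replicate 1. Their median log2 ratios were 0.22 and -0.02, and their median levels 29.4 and 98.3 CPM. Markers of other cell types went in different directions. The 7 epithelial genes summed to 0.0531% of counts in replicate 1 and 0.0334% in replicate 2, with 5 of the 7, the miR-200 family, called higher in replicate 1 and Mir203 and Mir205 at log2 ratios of -0.12 and -0.07. The liver gene Mir122 was called higher in replicate 2, with a ratio of -1.07. Neither of the 2 erythroid genes was called, although they summed to 0.0583% and 0.0286%. Endothelial Mir126a stood at -0.32, and the median ratio was -0.04 for leukocyte genes and 0.03 for smooth muscle genes, none of them called. The skeletal muscle markers took 10.9% and 12.3%, led by Mir206 with 107144 and 120690 CPM. Of the 7 with a row 6 were detected. The lowest of these, named after their values were seen, were Mir1a-1 (10.1 and 6.47 CPM) and Mir133a-1 (5.91 and 5.55 CPM). Each has another numbered copy, Mir1a-2 and Mir133a-2, and reads that fit both copies are counted for neither. These values therefore do not measure miR-1a or miR-133a as a whole. None of the 5 neuronal genes with a row was detected. They too are numbered copies, of miR-9 and miR-124a, so this does not show that those microRNAs were absent. The part of shared arms and of these cell types in the ratio of Mir103-2 was not tested. In bulk tissue, fewer cells of a type and less RNA per cell cannot be told apart.

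The family is often grouped with miR-15, miR-16, miR-195, miR-497, miR-322 and miR-503, cell cycle and growth linked microRNAs that hold AGCAGC near the 5′ end of a mature arm. Some relatives are set beside miR-107-3p with AGCAGC in capitals, to show how the seed is shifted.
miR-107-3p: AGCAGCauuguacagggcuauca
miR-15a-5p: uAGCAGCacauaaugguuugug
miR-16-5p: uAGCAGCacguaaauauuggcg
miR-322-5p: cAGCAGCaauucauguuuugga

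AGCAGC starts at base 1 in miR-103-3p and miR-107-3p and at base 2 in the arms of the 12 other genes that hold it, so that the seeds overlap but are not the same. The motif was searched on the RNA strand within the first 8 bases, where 13 of 1679 annotated mature microRNAs hold it (0.774%).

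Of 14 gene symbols listed for this group, 12 were in the tables and 10 were detected. The group took 3.24% of counts in replicate 1 and 2.78% in replicate 2, and Mir103-1, Mir103-2 and Mir107 held 0.924% and 0.743% of the group's counts. Most of the rest was Mir322, from the cluster on chromosome X, with 26652 and 23800 CPM, or 82.2% and 85.5% of the group. Mir503, of the same cluster, had 1737 and 1197 CPM, and Mir15a had 1667 and 1121 CPM. Among the detected genes of the group Mir107 stood next to Mir15b above it, with 283 and 252 CPM, a neighbour chosen after its values were seen, and Mir16-2 below it, with 254 and 99.7 CPM. The range of Mir107 overlapped both, so its order among these 3 is not set beyond the spread. Mir497 has no row, and the row of Mir497b, annotated on the other strand at the same place, had 0 annotated-strand counts and 5384 and 5822 opposite-strand counts. On the CPM scale used here these equal 677 and 538, above Mir107, and they are missing from the shares and order given for the group. Reads of miR-16-5p and miR-103-3p that fit both of their genes are missing as well. The shares and order are thus of assigned counts and not of the mature microRNAs. Mir103-2 and Mir103-1 were the lowest of the detected members. In the group 2 of the 10 detected genes were called between the libraries, Mir103-2 and Mir16-2, both higher in replicate 1. The share called over all detected genes was 7.4%, with 6.3% higher in replicate 1. The group's median log2 ratio was 0.31 against 0.01 over all detected genes.

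**Figure D4:**
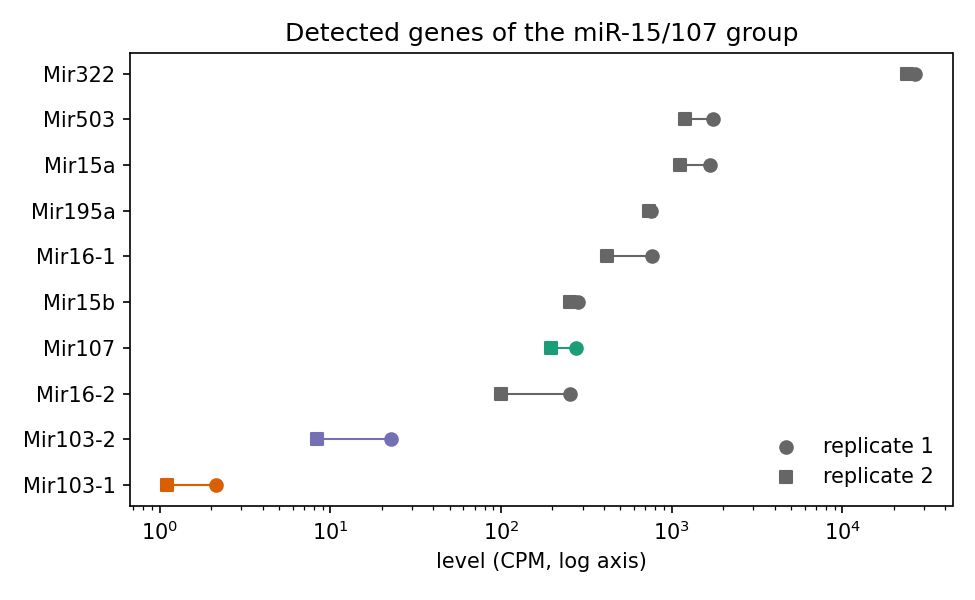
Level (CPM, log axis) of the 10 detected genes of the group that shares AGCAGC in replicate 1 (circles) and replicate 2 (squares), joined by a line per gene. Mir107 lies beside Mir15b, and Mir103-2 and Mir103-1 lie lowest in assigned counts.

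Other microRNAs made from paired genes had copies that ranged from nearly equal to unequal in assigned counts. Here too, reads that fit both copies are counted for neither. Mir128-1 had 3858 and 4617 counts and Mir128-2 2816 and 4577, a ratio of 1.37 in replicate 1 and 1.01 in replicate 2. Mir26a-2 had 497 and 401 counts against 61 and 63 for Mir26a-1, a ratio of 8.15 and 6.37. Mir16-1 had 6101 and 4514 counts and Mir16-2 2019 and 1078, a ratio of 3.02 and 4.19. Over the 7 listed pairs besides Mir103 with both copies detected, the ratio of the higher to the lower copy ran from 1.01 to 29.3, and the 10.6 and 7.50 of Mir103-2 over Mir103-1 lay inside that range. Mir16-2, like Mir103-2, was called higher in replicate 1, with a log2 ratio of 1.10 (1.00 to 1.21). Of the 25 gene symbols listed as copies, 22 were in the tables and 18 detected. Of these 18, 2 were called, both higher in replicate 1. Over all detected genes 7.4% were called, 6.3% as higher in replicate 1. The highest was Mir181a-1, with 652 and 789 CPM.

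Among microRNAs linked to insulin response and lipid metabolism, 11 of 12 listed genes were in the tables and 8 were detected. Of the detected genes Mir143, abundant in smooth muscle, led with 30515 and 27742 CPM, followed by the myeloid Mir223 with 528 and 403 CPM and Mir29a with 181 and 145 CPM. Mir107, not on that list, would stand between Mir223 and Mir29a, and the ranges of the 3 genes did not overlap. Of the list's 8 detected genes 1 was called, beside 7.4% of all detected genes. It was the liver microRNA Mir122, named after its values were seen, which was higher in replicate 2 with 86.4 and 153 CPM. The list's median log2 ratio was -0.01. Mir378a has no row, and the row annotated opposite to it, Gm25301, held 456978 and 747199 opposite-strand counts, which are not in these values. On the CPM scale used here they equal 57439 and 69081, above Mir143.

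The genes closest in level over the 2 libraries were named by the distance of log2(CPM + 1). For Mir107 they were Mir374b (258 and 205 CPM), Mir339 (245 and 203) and Mir30b (252 and 175), at distances of 0.11 to 0.21. For Mir103-2 they were Mir138-2 (23.3 and 9.80 CPM), Mir138-1 (21.5 and 6.19) and Mir582 (17.6 and 10.6), at 0.22 to 0.47. For Mir103-1 they were Mir1943, Mir1b and Mir1969, at 0.13 to 0.14, each with 11 to 19 counts per library. With 2 libraries this likeness describes level alone.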

How the data were processed

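The authors deposited raw counts per microRNA gene in whole numbers, 1 table per library, on assembly mm10 with GENCODE M4, per the deposited readme text. The sources used here name no aligner or counter. Of the 3 columns of counts, the first is the sum of the others, and the annotated strand was taken to be the second, an inference from the values. The annotated-strand column was used. The 4 rows that name no gene stayed out of library sizes and tests. In replicates 1 and 2, 16.0% and 13.4% of reads were unmapped and 1.60% and 1.43% lay in no gene.

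Symbols came from GENCODE M21 on GRCm38, the assembly also called mm10 (1894 of 1973 IDs matched), and sequences from RefSeq on GRCm38.p6, matched by symbol for all 3 members and for 335 of 365 detected genes. No genome sequence was used, so places outside annotated hairpins were not searched. Members and lists were chosen with earlier results of these data known.

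Computed here were CPM, exact intervals, Fisher's exact tests, and binomial tests across all detected genes with edgeR 4.0.16 TMM sizes (R 4.3.3, scipy 1.17.1). The binomial test was tried on simulated counts with counting error alone, scaled by library totals. Spread between libraries beyond counting error was not simulated. With 1 group of 2 libraries, edgeR's quasi-likelihood test has no contrast. Named genes were the members, the up to 3 highest detected genes of each list, the Mir128, Mir26a and Mir16 pairs, and the 3 genes nearest each member in level. The grouping by shared arms, the range over copy pairs and the 2-fold window of level were chosen after the values were seen. Alternatives were unstranded counts, all reads as denominator, count minimums of 1 and 50, scaling by library totals or by DESeq2 1.42.0, a fold minimum of 1.5 and each replicate left out. Intervals, floors and tests cover counting error only; whether the libraries stand for separate pups is assumed.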

Additional observations from a re-analysis of the deposited data

How the results depend on the processing

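Mir103-2 stayed called as higher in replicate 1, and Mir107 and Mir103-1 stayed above 0 and not called, under each scaling, count minimum, strand setting and fold minimum that gave a value. The members had 0 opposite-strand counts, so the strand setting changed only their scaling. A lower fold minimum could not undo the call of Mir103-2. It could also call neither Mir107, at 1.17-fold, nor Mir103-1, which missed the adjusted p. The log2 ratio of Mir103-2 ranged from 1.18 with DESeq2 size factors to 1.44 with library totals. Mir103-1 gave no value at a count minimum of 50, and no ratio between libraries exists with a replicate left out. Counted over all reads of a library, the levels fell to 117 CPM for Mir107, 7.63 for Mir103-2 and 0.804 for Mir103-1 and the family's share to 0.0126%. That denominator also holds reads that fit more than 1 place, unmapped reads, opposite-strand counts and reads in no gene. The 23 genes called higher in replicate 1 became 41 with library totals, 13 at a count minimum of 50 and 52 at a fold minimum of 1.5. The 4 called higher in replicate 2 became 1, 2 and 20 under the same settings and 2 at a count minimum of 1. Unstranded counts moved each member's level by less than the SD. The level of Mir103-2 was 8.32 CPM without replicate 1 and 22.6 without replicate 2, against a mean of 15.5. That of Mir107 was 197 and 275, and that of Mir103-1 1.11 and 2.14. Depth limits Mir103-1, with 17 and 12 counts, and reads that fit more than 1 hairpin limit all 3 genes.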
